A study of Mus musculus with 6 samples.

Results

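The genes described here encode the nuclear subunits of the 5 complexes of the mitochondrial respiratory chain. They were taken from the deposited expression table by symbol. The symbols begin with *Nduf* plus a subunit letter and digit, *Sdha* to *Sdhd*, *Uqcr*, *Cox4* to *Cox8*, or *Atp5*, and entries with a copy number after the symbol were left out. This gave 84 of 21358 entries, with 37 genes for complex I, 4 for complex II, 8 for complex III, 18 for complex IV and 17 for complex V. No entry of the 84 had to be left out for a copy number.

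RNA was sequenced from whole tumors of C57/BL6 mice that carried subcutaneous B16F10, a syngeneic mouse melanoma line. Once the tumor had reached at least 150 mm3, all mice received pmel-1 T cells by adoptive cell transfer (ACT). The transgenic receptor of these cells recognises the melanocyte antigen gp100. Per the study's methods all mice had been irradiated beforehand to deplete lymphocytes. In 3 mice the transfer was supported with IL-2 (ACT + IL-2) and in 3 mice with NKTR-214, a pegylated IL-2 prodrug (ACT + NKTR-214). Tumors were taken at day 12, 1 from each mouse. B16F10 is 1 transplanted line, and its whole tumors hold melanoma, stromal and immune cells together. In such bulk RNA, fewer cells of a type and less RNA per cell cannot be told apart. The melanoma label held in the data, since the 9 melanocyte markers, among them *Pmel* and *Tyrp1*, summed to 5658 to 7246 FPKM in ACT + IL-2 and 2769.5 to 3923 FPKM in ACT + NKTR-214. Values are FPKM, fragments per kilobase of exon at a fixed number of mapped fragments, which correct for gene length and for the mapped depth of a library. Values of a group are given in the order of replicates 1, 2 and 3. The question addressed was whether complexes I to V were expressed at different levels in the tumors of the 2 treatments.

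The respiratory chain passes electrons from NADH (complex I) or succinate (complex II) through ubiquinone to complex III, and by cytochrome c to complex IV and oxygen. The proton gradient built by complexes I, III and IV drives ATP synthesis by complex V. Most subunits are encoded in the nucleus and imported, and every complex except complex II also needs subunits made from mitochondrial DNA. The nuclear genes are known to be transcribed together under factors such as NRF1, GABPA and YY1 and the coactivator PGC-1α. Pigmented melanomas with high MITF are known for a high PGC-1α level and an oxidative metabolism. The 13 protein-coding genes of mitochondrial DNA were not analysed here.

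Respiratory chain transcripts made up a smaller part of the summed FPKM in ACT + NKTR-214 tumors. As a share of all FPKM in the library, the 84 genes had 2.86, 2.89 and 2.98% in ACT + IL-2 and 2.45, 2.19 and 2.40% in ACT + NKTR-214. The groups did not overlap, and the mean share was 19.4% lower in ACT + NKTR-214. On the values as deposited the difference was small gene by gene, and 1 ACT + IL-2 library was low throughout. A linear model fitted across all 14172 genes tested (limma) called 2 of the 82 genes tested lower (8.28% of all genes) and 3 higher (20.7% of all genes) at an adjusted p of 0.05. With every library scaled to the same FPKM sum it called 44 lower (31.3% of all genes) and 3 higher (20.6%). The subunits called on both scales were *Ndufs1*, which carries iron-sulfur clusters of complex I, and *Ndufa4*, both lower in ACT + NKTR-214, and *Cox7a2l*, a supercomplex factor, which was higher.

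Most subunits were abundant transcripts. The median of the 84 genes' means over the 6 tumors was 54.6 FPKM. The gene with the highest mean under the names of each complex was *Ndufa4* in complex I, *Sdhb*, the iron-sulfur subunit of succinate dehydrogenase, in complex II, *Uqcr10* in complex III, *Cox4i1* in complex IV and *Atp5b*, the catalytic beta subunit of ATP synthase, in complex V. The protein of *Ndufa4* is a subunit of complex IV, and the next highest complex I gene was *Ndufb9* with a mean of 125 FPKM. *Atp5b* had 511, 406 and 517 FPKM in ACT + IL-2 and 446, 360.0 and 385 FPKM in ACT + NKTR-214. *Cox4i1*, the usual form of the largest nuclear subunit of cytochrome c oxidase, had 263, 211 and 279 FPKM in ACT + IL-2 and 276, 265 and 254 FPKM in ACT + NKTR-214. *Uqcr10*, a small subunit of complex III, had 203, 159 and 206 FPKM in ACT + IL-2 and 182, 162 and 157 FPKM in ACT + NKTR-214. The groups overlapped for all 3 of these genes, and in each ACT + IL-2 replicate 2 was the lowest of its group. Among complexes, the median of the means was 45.2 FPKM for complex I, 74.5 FPKM for complex II, 72.1 FPKM for complex III, 26.7 FPKM for complex IV, which includes rare tissue isoforms, and 64.1 FPKM for complex V.

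A few subunits that are not restricted to some tissues were listed at very low values. Of the 74 genes left after setting aside the 8 tissue-restricted isoforms and 2 genes that are not subunits, 7 had a mean under 6 FPKM, from 0.676 FPKM for *Atp5l* to 5.48 FPKM for *Uqcrb*. The other 67 lay between 12.2 and 438 FPKM. These 7 were *Atp5g1*, *Atp5g2*, *Atp5l*, *Cox7c*, *Ndufb4*, *Ndufs5* and *Uqcrb*. Their coding sequences were cut into all windows of 50 bases, the length of a read in this study. Between 72.5% and all of the windows were found unchanged in GENCODE vM21 transcripts of other genes. For the other 67 genes the share was at most 69.8% (*Ndufa12*), with a median of 0.0746%. Among the 67, *Ndufa12*, *Atp5h*, *Cox5b*, *Cox7a2l*, *Cox6c*, *Ndufb2* and *Atp5f1* had over 50% shared, with means from 26.2 to 90.4 FPKM. Their levels are uncertain too. At a common sum *Ndufa12*, *Cox5b*, *Ndufb2* and *Atp5f1* fell, *Cox7a2l* rose, and *Atp5h* and *Cox6c* did not pass. A read from such a window may have more than 1 place in the genome. How the counting treated these reads was not stated, and its part in the low values was not tested. The first 50 coding bases of 4 of the 7 genes under 6 FPKM are shown because each is found unchanged in another gene, with the start codon in capitals.
Atp5g2: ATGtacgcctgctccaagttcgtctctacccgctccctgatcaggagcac
Atp5l: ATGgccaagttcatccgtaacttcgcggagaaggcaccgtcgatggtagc
Cox7c: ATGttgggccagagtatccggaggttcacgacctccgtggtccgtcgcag
Uqcrb: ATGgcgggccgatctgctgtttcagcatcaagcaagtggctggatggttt
These are spliced GENCODE vM21 sequences on GRCm38. The window of *Atp5g2* (chromosome 15, 102662864 to 102672352), a gene of the c-ring of ATP synthase, is also in the pseudogene *Gm10175* (chromosome 7, 23946646 to 23947290). That of *Atp5l* (chromosome 9, 44912557 to 44920742) is also in *Gm10221* (chromosome 5, 24581554 to 24581862). The window of *Cox7c* (chromosome 13, 86044816 to 86046904) is also in *Gm12338* (chromosome 11, 75599763 to 75599954), and that of *Uqcrb* (chromosome 13, 66900617 to 66905378) in *Gm2962* (chromosome 1, 170925309 to 170925644). The values of the 7 genes under 6 FPKM are uncertain. They stay in the counts and medians below, and none of the 7 was called as deposited or at a common sum.

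**Figure D1:**
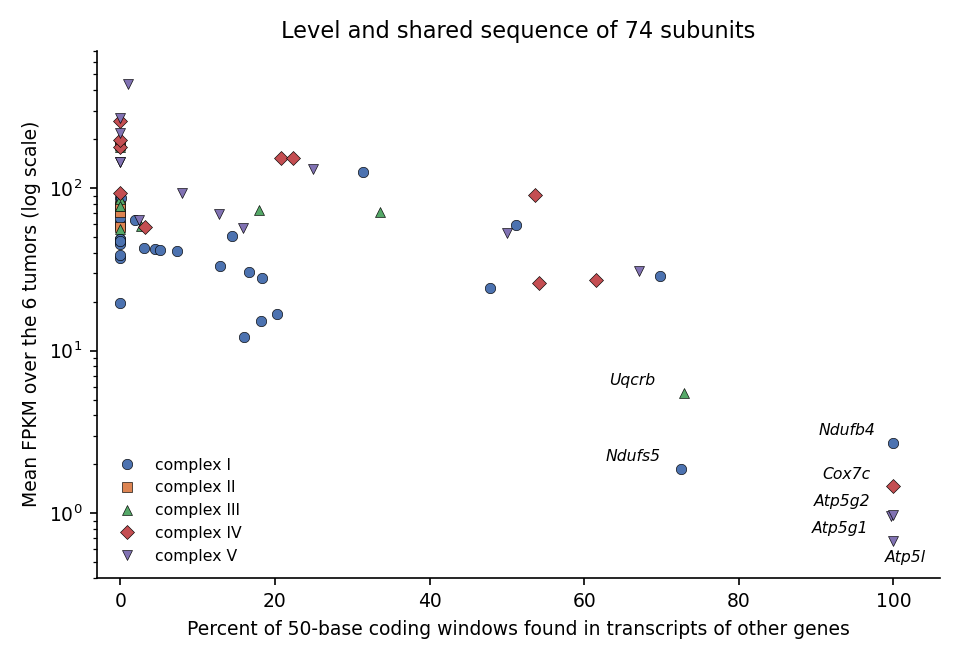
Mean FPKM over the 6 tumors (log scale) against the percent of 50-base coding windows that occur in transcripts of other genes, 1 point per gene for 74 subunits, with the symbol giving the complex. The 7 genes under 6 FPKM all lie at 72.5% or more, and the other 67 at 69.8% or less.

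Promoter sequence was not used in the choice by symbol and was searched for letters bound by the known factors. RefSeq promoters (GRCm38.p6, 250 bases before to 50 after the start) were found for 69 of the 84 genes. On either strand, the NRF1 letters GCGCNTGCG occurred in 24 of the 69 (34.8%) against 7.12% of the 27025 genes in the promoter table. The GABPA letters CCGGAAG occurred in 16 (23.2%) against 9.93%, and the YY1 letters AANATGGCG in 11 (15.9%) against 2.76%. At least 1 of the 3 was present in 42 genes (60.9%) against 17.3% of all. The SP1 letters GGGCGG were present in 40.6% against 38.2% and the MITF letters TCACGTG in 4.35% against 4.29%. The 120 bases before the start are shown for the gene of each complex with the highest mean FPKM among those with an NRF1, GABPA or YY1 match in that stretch, with the matches in capitals.
Ndufb10: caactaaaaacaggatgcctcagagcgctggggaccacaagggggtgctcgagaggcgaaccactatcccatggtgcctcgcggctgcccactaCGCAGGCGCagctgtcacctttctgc
Sdhd: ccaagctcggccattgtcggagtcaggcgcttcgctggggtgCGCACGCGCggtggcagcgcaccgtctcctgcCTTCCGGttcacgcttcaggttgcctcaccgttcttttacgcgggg
Uqcrh: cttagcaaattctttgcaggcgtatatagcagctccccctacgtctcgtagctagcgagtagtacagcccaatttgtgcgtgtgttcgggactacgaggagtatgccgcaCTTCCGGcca
Cox6b1: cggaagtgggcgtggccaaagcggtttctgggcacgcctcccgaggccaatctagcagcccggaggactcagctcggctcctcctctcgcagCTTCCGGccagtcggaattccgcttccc
Atp5e: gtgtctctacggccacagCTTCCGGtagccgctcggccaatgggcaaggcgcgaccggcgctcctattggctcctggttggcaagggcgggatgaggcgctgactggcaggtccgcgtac
All 5 lie on the minus strand. *Ndufb10*, an accessory subunit of complex I, is shown at chr17:24724424-24724543. *Sdhd*, a membrane anchor of complex II, is at chr9:50603850-50603969, and *Uqcrh*, the hinge protein of complex III, at chr4:116075071-116075190. *Cox6b1* of complex IV is at chr7:30626115-30626234 and *Atp5e*, the epsilon subunit of ATP synthase, at chr2:174464102-174464221. *Ndufb10* holds an NRF1 match that begins 26 bases before the start. *Sdhd* holds 2 matches, NRF1 at 78 and GABPA at 46 bases before the start, and *Uqcrh*, *Cox6b1* and *Atp5e* hold a GABPA match at 10, 28 and 102 bases. A match describes these letters and does not show that a factor bound there.

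The 6 libraries were not on one level. The FPKM of all entries summed to 176420 in ACT + IL-2 replicate 2, and to between 217581 and 246514 in the other 5. The steps between low FPKM values gave an estimated mapped depth of 20900000 to 24700000 reads per library. In this estimate 63.6% to 67.2% of the low values fell within 0.05 of a whole read. ACT + IL-2 replicate 2 was at 22900000 reads, inside that range. Among the 77 subunits with a mean of at least 1 FPKM, replicate 2 had a median of 0.777 times the mean of ACT + IL-2 replicates 1 and 3 (quartiles 0.75 and 0.792). It was the lowest of the 3 ACT + IL-2 tumors for 74. The same ratio was 0.792 over all 11558 genes at that level and 0.785 for the FPKM sum. Calls of subunits and of lists are therefore given as deposited and with libraries scaled to a common sum, and what lowered this library was not tested.

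**Figure D2:**
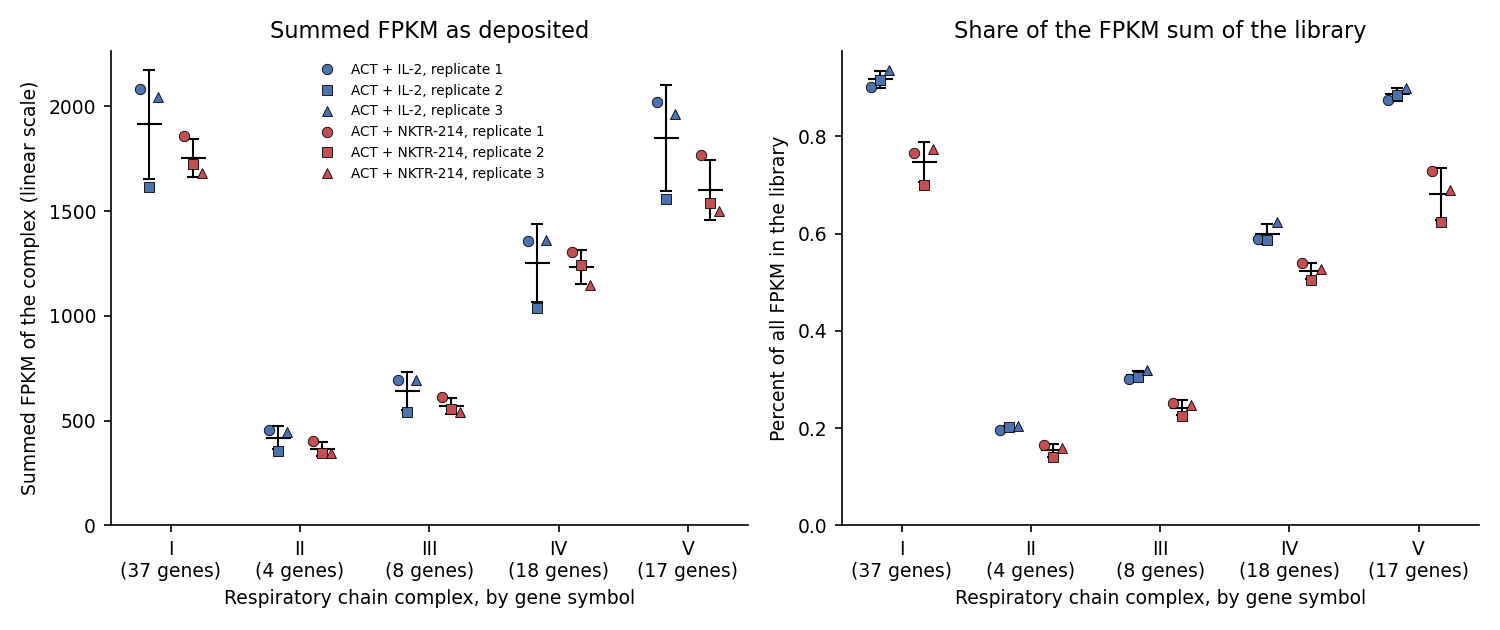
Summed FPKM of the nuclear genes of each complex as deposited (left) and as a percent of all FPKM in the same library (right), with 1 point per tumor (circle, square and triangle for replicates 1, 2 and 3), horizontal lines for the mean of 3 tumors and bars for ± 1 SD. The groups overlap in every complex on the left and in none on the right, where ACT + NKTR-214 is lower.

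Complex by complex, the deposited sums overlapped between the groups and the shares of the library did not. The sum for complex I was 2083, 1615 and 2044 in ACT + IL-2 and 1858, 1724 and 1684 in ACT + NKTR-214, and as a share of the library 0.902, 0.915 and 0.936% in ACT + IL-2 and 0.767, 0.699 and 0.774% in ACT + NKTR-214. Complex V had shares of 0.874, 0.884 and 0.900% in ACT + IL-2 and 0.729, 0.624 and 0.690% in ACT + NKTR-214. Complex IV had 0.588, 0.587 and 0.623% in ACT + IL-2 and 0.539, 0.505 and 0.527% in ACT + NKTR-214. In all 3 complexes the lowest ACT + IL-2 tumor was above the highest ACT + NKTR-214 tumor. The mean share was lower in ACT + NKTR-214 by 23.2% in complex V, 22.9% in complex II, 21.6% in complex III, 18.7% in complex I and 12.7% in complex IV. With *Ndufa4*, whose protein is a subunit of complex IV, moved there, the mean share was lower by 15.8% in complex I and 16.9% in complex IV, so the order of these complexes depended on that gene. No test was made of these sums, and with 3 tumors against 3 an exact test cannot give a p below 0.1.

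Ratios between complexes do not depend on the scaling of a library. Complex IV over complex I was 0.653, 0.641 and 0.666 in ACT + IL-2 and 0.703, 0.722 and 0.681 in ACT + NKTR-214, so that every ACT + NKTR-214 tumor was above every ACT + IL-2 tumor. This difference depended on where 1 gene was counted. *Ndufa4* bears a complex I name but its protein is a subunit of complex IV, to which it was moved in an alternative added after seeing the data. The ratio was then 0.875, 0.881 and 0.884 in ACT + IL-2 and 0.877, 0.876 and 0.853 in ACT + NKTR-214, and the groups overlapped. With *Ndufa4* left out of both complexes the ratio was 0.740, 0.735 and 0.753 in ACT + IL-2 and 0.775, 0.786 and 0.751 in ACT + NKTR-214. The groups overlapped here too, although 2 of the 3 ACT + NKTR-214 tumors were above all ACT + IL-2 tumors. Complex V over complex I was 0.970, 0.966 and 0.962 in ACT + IL-2 and 0.951, 0.893 and 0.892 in ACT + NKTR-214, lower in every ACT + NKTR-214 tumor, and it was lower in all 3 also without *Ndufa4*. Complex IV over complex V was 0.673, 0.664 and 0.692 in ACT + IL-2 and 0.738, 0.809 and 0.763 in ACT + NKTR-214, and with *Ndufa4* in complex IV it was 0.795, 0.796 and 0.813 in ACT + IL-2 and 0.836, 0.901 and 0.868 in ACT + NKTR-214. The ratio of complex IV to complex V was higher in every ACT + NKTR-214 tumor by both countings.

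**Figure D3:**
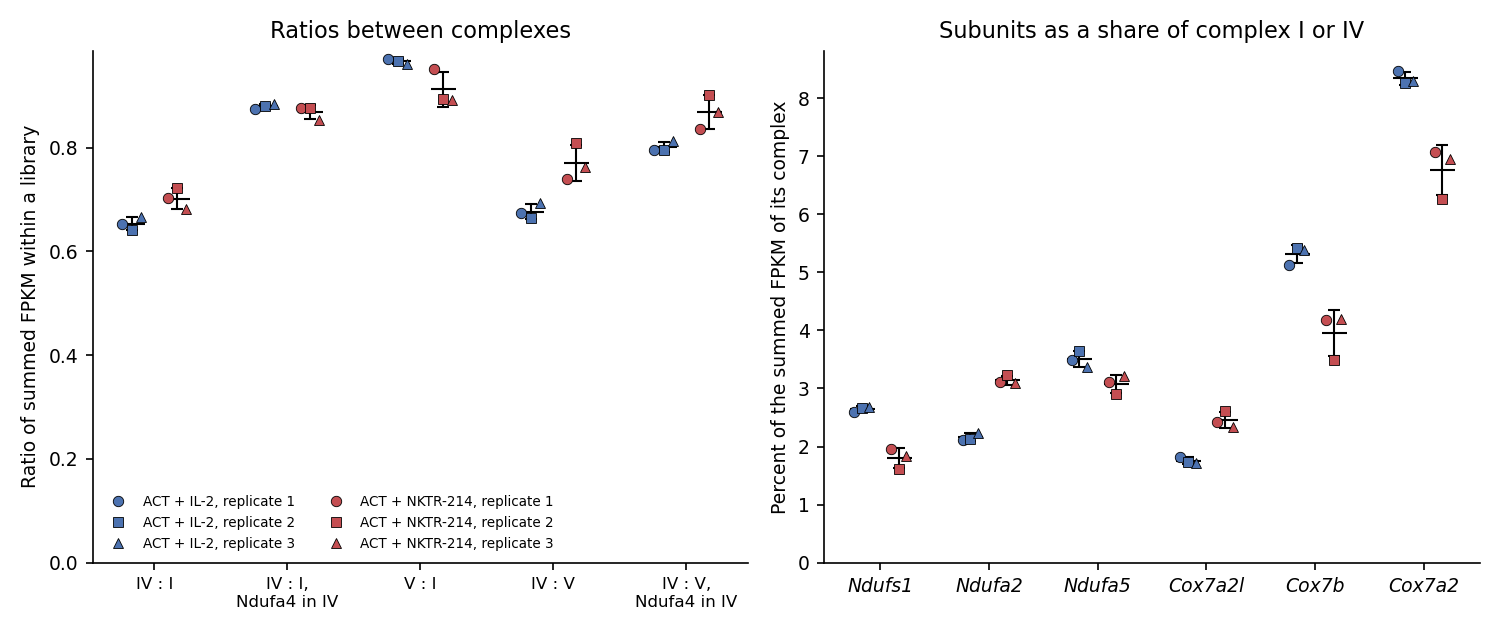
Ratios of summed FPKM between complexes within each library (left) and 6 subunits as a percent of the summed FPKM of complex I or IV (right), with points, means and SD bars as in the plot of complex sums. The ratio of complex IV to complex I separates the groups only while *Ndufa4* is counted in complex I, and on the right *Ndufs1*, *Ndufa5*, *Cox7b* and *Cox7a2* are lower and *Ndufa2* and *Cox7a2l* higher in every ACT + NKTR-214 tumor.

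The gene-by-gene test was limma on log2(FPKM + 1), with Benjamini-Hochberg adjustment over 14172 genes and a threshold of 0.05. As deposited, 2 of 82 subunits fell (*Ndufs1* and *Ndufa4*) and 3 entries rose (*Cox7a2l*, *Cox6b2* and *Atp5sl*). The 82 are called subunits here although they hold the 2 genes that are not, 1 of them *Atp5sl*. Both shares of the subunits, 2.44% and 3.66%, were below those of all genes given above. At an unadjusted p under 0.05, 3 of the 82 were lower and 5 higher, beside 1874 lower and 3706 higher of the 14172 genes. The median log2 fold change of the subunits was -0.10 against 0.05 over all genes tested, with 63.4% of the subunits and 44.3% of all genes below 0. In 4 subunits all ACT + NKTR-214 tumors were below all ACT + IL-2 tumors and in 6 all were above. Of all genes, 15.3% were separated downwards and 27.1% upwards. Because 1 is added before taking logs, differences of rare genes appear smaller than they are.

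With libraries scaled to a common sum, 44 of 82 subunits fell (53.7%) and 3 entries rose (*Cox7a2l*, *Ndufa2* and *Atp5sl*). The median of the subunits was -0.28 and that of all genes -0.08, a shift of -0.13 of all genes from the deposited scale. All ACT + NKTR-214 tumors were below all ACT + IL-2 tumors in 50 subunits (61.0%) and above in 5, against 39.5% and 24.6% of all genes. A common 75th percentile called 41 subunits lower and 4 higher, with 26.2% and 23.0% of all genes. Quantile normalization also called 41 lower and 4 higher, with 32.1% and 18.8% of all genes. On the deposited scale but without ACT + IL-2 replicate 2, limma called 15 subunits lower and 0 higher, and at an unadjusted p under 0.05 there were 28 and 4. Of all genes, 14.1% were then called lower and 14.1% higher. At an unadjusted p under 0.05, 3301 of the 14172 genes were lower there and 2936 higher.

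**Figure D4:**
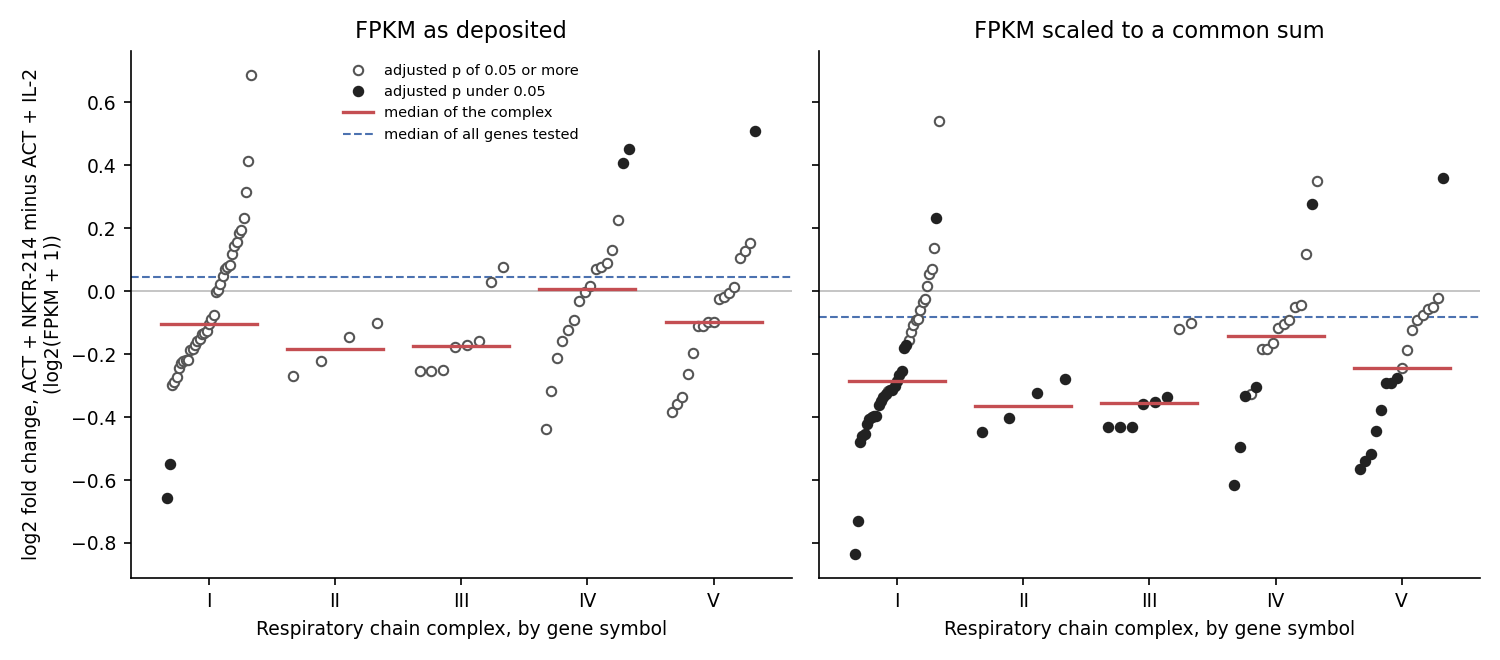
log2 fold change of each of the 82 subunits tested (ACT + NKTR-214 minus ACT + IL-2, log2(FPKM + 1)), ordered within its complex, for FPKM as deposited (left) and scaled to a common sum (right). Filled points passed an adjusted p of 0.05 in limma, red lines are the medians of the complexes and the dashed line is the median of all 14172 genes, which lies above 4 of the 5 complex medians on the left by more than 0.1 and above all 5 on the right.

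In complex I, 22 of 37 genes fell and 1 rose at a common sum, beside 31.3% and 20.6% of all genes on that scale. The median was -0.28, while as deposited 2 fell and the median was -0.10. All 3 core subunits of the NADH-oxidising module fell at a common sum, but the call of *Ndufv1* did not hold under other scalings, as given below. *Ndufs1* (chromosome 1, 63143596 to 63176833, minus strand, GRCm38), which carries iron-sulfur clusters of that module, had 54.0, 43.0 and 54.7 FPKM in ACT + IL-2 and 36.3, 27.8 and 31.0 FPKM in ACT + NKTR-214. Its highest ACT + NKTR-214 value lay below its lowest ACT + IL-2 value, and its means were 50.6 ± 6.56 FPKM (SD, n = 3) in ACT + IL-2 and 31.7 ± 4.29 FPKM (SD, n = 3) in ACT + NKTR-214. Its log2 fold change was -0.66 ± 0.16 SE, adjusted p = 0.00507 as deposited and -0.83 ± 0.11 SE, adjusted p = 0.00129 at a common sum. It fell as deposited also with any 1 of the 6 libraries left out. As a share of the complex I sum, which needs no scaling, *Ndufs1* made up 2.59, 2.66 and 2.68% in ACT + IL-2 and 1.95, 1.61 and 1.84% in ACT + NKTR-214. Of its 50-base transcript windows 5.93% are also in the transcript of *Ino80dos*, which overlaps it, and whether counting used strand is not given in the sources used here.

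The flavoprotein *Ndufv1*, where NADH is oxidised, belongs to the same module as *Ndufs1*. *Ndufv1* had 43.6, 32.2 and 40.5 FPKM in ACT + IL-2 and 39.4, 39.6 and 36.1 FPKM in ACT + NKTR-214, which overlapped. Its log2 fold change was -0.00 ± 0.15 SE, adjusted p = 0.992 as deposited and -0.18 ± 0.05 SE, adjusted p = 0.0229 at a common sum. It did not pass at a common 75th percentile (adjusted p = 0.101) or after quantile normalization (adjusted p = 0.107), nor at a common sum without any 1 of the ACT + IL-2 replicates or without ACT + NKTR-214 replicate 1. In the module that reduces ubiquinone, *Ndufs7* had 51.4, 39.4 and 53.0 FPKM in ACT + IL-2 and 50.02, 51.8 and 45.7 FPKM in ACT + NKTR-214. *Ndufs8*, of the same module, had 41.7, 33.8 and 39.3 FPKM in ACT + IL-2 and 40.5, 36.7 and 30.8 FPKM in ACT + NKTR-214. The groups overlapped in both. At a common sum *Ndufs8* fell (log2 fold change -0.27, adjusted p = 0.0205), while *Ndufs7* did not pass (-0.13, adjusted p = 0.0971). As deposited neither passed (adjusted p = 0.709 and 0.858). The call of *Ndufs8* was lost after quantile normalization (adjusted p = 0.0588), and at a common sum without ACT + IL-2 replicate 2 or without ACT + NKTR-214 replicate 2. The difference between these core subunits was not tested.

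*Ndufa4* (chromosome 6, 11900292 to 11907497, minus strand) was the most abundant gene of the complex I names and had 247, 206 and 237 FPKM in ACT + IL-2 and 173, 141 and 157 FPKM in ACT + NKTR-214. The groups did not overlap, and the means were 229.9 ± 21.3 FPKM (SD, n = 3) in ACT + IL-2 and 157 ± 15.7 FPKM (SD, n = 3) in ACT + NKTR-214. Its log2 fold change was -0.55 ± 0.18 SE, adjusted p = 0.0357 as deposited and -0.73 ± 0.11 SE, adjusted p = 0.00199 at a common sum. As deposited it passed without ACT + IL-2 replicate 2 but not without any of the other 5 libraries (adjusted p = 0.0744 to 0.198). It made up 11.8, 12.7 and 11.6% in ACT + IL-2 and 9.29, 8.20 and 9.31% in ACT + NKTR-214 of the complex I sum, so that the tumors separated on this measure too.

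Among the 28 accessory subunits of complex I, which surround the core, 15 fell at a common sum and 1, *Ndufa2*, rose, beside 31.3% and 20.6% of all genes, and none passed as deposited. *Ndufa2*, named after its values were seen, had 44.1, 34.5 and 45.8 FPKM in ACT + IL-2 and 57.8, 55.7 and 52.0 FPKM in ACT + NKTR-214. Every ACT + NKTR-214 tumor was above every ACT + IL-2 tumor, at 0.41 ± 0.15 SE, adjusted p = 0.0568 as deposited and 0.23 ± 0.06 SE, adjusted p = 0.0170 at a common sum. The call at a common sum was lost without ACT + IL-2 replicate 1 or 2 or ACT + NKTR-214 replicate 1, and as deposited the gene passed without ACT + IL-2 replicate 1. It made up 2.11, 2.14 and 2.24% in ACT + IL-2 and 3.11, 3.23 and 3.09% in ACT + NKTR-214 of the complex I sum.

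**Figure D5:**
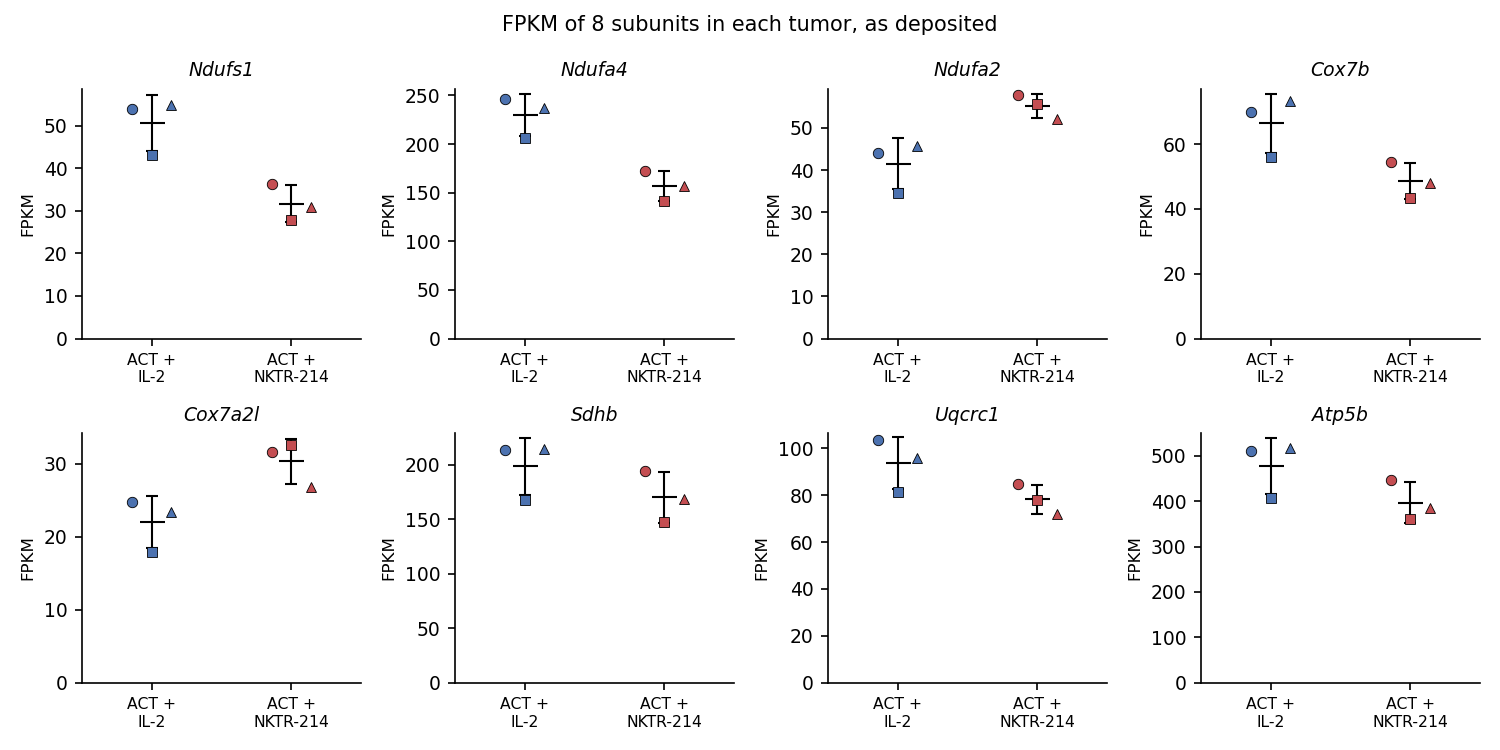
FPKM as deposited of 8 subunits in each of the 6 tumors, with circles, squares and triangles for replicates 1, 2 and 3, horizontal lines for the mean of 3 tumors and bars for ± 1 SD. *Ndufs1*, *Ndufa4* and *Cox7b* are lower and *Ndufa2* and *Cox7a2l* higher in every ACT + NKTR-214 tumor, while *Sdhb*, *Uqcrc1* and *Atp5b* overlap, with ACT + IL-2 replicate 2 as the lowest tumor of its group.

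All 4 genes of complex II, which oxidises succinate and links the chain to the citric acid cycle, fell at a common sum, where 31.3% of all genes were lower, and none passed as deposited. *Sdha*, the flavoprotein, had 65.8, 52.2 and 63.3 FPKM in ACT + IL-2 and 60.3, 53.2 and 49.8 FPKM in ACT + NKTR-214. *Sdhb* had 213.7, 168 and 214.2 FPKM in ACT + IL-2 and 194, 148 and 169 FPKM in ACT + NKTR-214. In both, ACT + IL-2 replicates 1 and 3 were the highest 2 tumors. At a common sum the log2 fold changes were -0.33 for *Sdha* (adjusted p = 0.00708) and -0.40 for *Sdhb* (adjusted p = 0.0254). The call of *Sdhb* at a common sum was lost without ACT + IL-2 replicate 2 or without ACT + IL-2 replicate 3. The membrane anchors were at -0.28 for *Sdhc* (adjusted p = 0.00685) and -0.45 for *Sdhd* (adjusted p = 0.00121). As deposited they lay between -0.27 and -0.10, with adjusted p from 0.240 to 0.688.

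In complex III, 6 of 8 genes fell at a common sum and none rose, beside 31.3% and 20.6% of all genes, and none passed as deposited. *Uqcrc1*, a core protein, had 103, 81.5 and 96.0 FPKM in ACT + IL-2 and 84.7, 77.8 and 72.2 FPKM in ACT + NKTR-214. *Uqcrfs1*, the Rieske iron-sulfur protein that hands electrons to cytochrome c1, had 66.1, 49.4 and 63.5 FPKM in ACT + IL-2 and 56.6, 51.9 and 48.4 FPKM in ACT + NKTR-214. The log2 fold changes at a common sum were -0.43 for *Uqcrc1* (adjusted p = 0.00206), -0.36 for *Uqcrfs1* (adjusted p = 0.00331) and -0.35 for *Uqcr10* (adjusted p = 0.00934). The 2 genes that did not pass were *Uqcrq* and *Uqcrb*, and *Uqcrb* is 1 of the 7 genes with shared sequence.

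Complex IV had the smallest share of genes called lower among the 5 complexes at a common sum, 4 of 16, with 1 higher and a median of -0.14 against 0.01 as deposited. Both shares are below the 31.3% and 20.6% of all genes on that scale, but the 16 include 5 rare tissue-restricted isoforms, none of them called. All 4 lower genes were among the 10 ubiquitous nuclear subunits, a share above the 31.3% of all genes. The catalytic centres of this complex are made from mitochondrial DNA, and its nuclear subunits surround them. *Cox4i1* was at a log2 fold change of 0.09 as deposited and -0.09 at a common sum, and neither passed (adjusted p = 0.782 and 0.38). *Cox5a* had 174, 122 and 160.0 FPKM in ACT + IL-2 and 165, 149 and 143 FPKM in ACT + NKTR-214 and did not pass at a common sum either (log2 fold change -0.17, adjusted p = 0.106).

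Genes with a COX7 name went in opposite directions at a common sum. *Cox7b*, a small subunit, had 69.8, 56.2 and 73.2 FPKM in ACT + IL-2 and 54.5, 43.4 and 48.0 FPKM in ACT + NKTR-214, with no overlap. The log2 fold change of *Cox7b* was -0.44 ± 0.16 SE, adjusted p = 0.0524 as deposited and -0.62 ± 0.10 SE, adjusted p = 0.003 at a common sum. As deposited it passed without ACT + IL-2 replicate 2 (adjusted p = 0.0203) but without no other library. It also passed with the replicate number as a block and in limma without the trend. *Cox7a2*, another small subunit, had 115, 85.6 and 113 FPKM in ACT + IL-2 and 92.3, 78.0 and 79.6 FPKM in ACT + NKTR-214, with a log2 fold change of -0.50 ± 0.08 SE, adjusted p = 0.00319 at a common sum. *Cox7a2l* (chromosome 17, 83501918 to 83517330, minus strand), known as a supercomplex assembly factor, of which C57BL/6 mice are known to carry a short form, had 24.8, 18.0 and 23.4 FPKM in ACT + IL-2 and 31.6, 32.5 and 26.8 FPKM in ACT + NKTR-214. All its ACT + NKTR-214 values exceeded all its ACT + IL-2 values, with means of 22.0 ± 3.59 FPKM (SD, n = 3) in ACT + IL-2 and 30.3 ± 3.08 FPKM (SD, n = 3) in ACT + NKTR-214. It rose on both scales (0.45 ± 0.16 SE, adjusted p = 0.0403 as deposited and 0.28 ± 0.06 SE, adjusted p = 0.0069 at a common sum). As deposited it did not pass without ACT + IL-2 replicate 2 (log2 fold change 0.32, adjusted p = 0.0717), without ACT + IL-2 replicate 3 (adjusted p = 0.0695), or without ACT + NKTR-214 replicate 1 or 2 (adjusted p = 0.126 and 0.15). It made up 1.82, 1.74 and 1.72% in ACT + IL-2 and 2.42, 2.62 and 2.34% in ACT + NKTR-214 of the complex IV sum. Its coding windows are shared with other genes to 54.1%, so its level is uncertain.

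In complex V, 8 of 17 genes fell at a common sum and 1 rose, beside 31.3% and 20.6% of all genes. The median was -0.24 against -0.10 as deposited. Of the 5 subunits of the F1 head and central stalk, which make ATP, 3 fell. *Atp5b* was at -0.26 as deposited (adjusted p = 0.426) and fell at a common sum (-0.45 ± 0.12 SE, adjusted p = 0.0169). This call was lost without ACT + IL-2 replicate 2 or without ACT + IL-2 replicate 3. In the peripheral stalk 3 of 4 fell, in the c-ring 1 of 3 and among the small membrane subunits 1 of 3. The counts of the c-ring and the small membrane subunits are close to the 31.3% of all genes, and both groups hold genes with shared sequence.

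The c-ring is encoded by 3 genes with an identical mature product, and nearly all its signal was in *Atp5g3*, with 338, 259.7 and 322 FPKM in ACT + IL-2 and 271, 219.8 and 213.8 FPKM in ACT + NKTR-214. Its log2 fold change was -0.56 ± 0.10 SE, adjusted p = 0.00394 at a common sum. *Atp5g1* and *Atp5g2* had between 0.519 and 1.35 FPKM over the 6 tumors and belong to the 7 genes with shared sequence. The single entry of the complex V names that rose on both scales, *Atp5sl* (chromosome 7, 25619414 to 25625551, plus strand), is not an ATP synthase subunit but an assembly factor of complex I. It had 4.03, 3.21 and 4.14 FPKM in ACT + IL-2 and 5.77, 6.59 and 5.10 FPKM in ACT + NKTR-214, with no overlap. The log2 fold change of *Atp5sl* was 0.51 ± 0.16 SE, adjusted p = 0.0234 as deposited and 0.36 ± 0.08 SE, adjusted p = 0.0103 at a common sum. As deposited it did not pass without ACT + IL-2 replicate 2 (log2 fold change 0.42, adjusted p = 0.0523) or without ACT + NKTR-214 replicate 1 or 2 (adjusted p = 0.0699 and 0.140).

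Isoforms restricted to some tissues stayed rare beside their usual partners. *Ndufa4l2*, a relative of *Ndufa4* known to be induced by hypoxia, was the highest of the 8 and had 9.03, 3.21 and 3.77 FPKM in ACT + IL-2 and 6.17, 9.31 and 10.4 FPKM in ACT + NKTR-214. These overlapped, with ACT + IL-2 replicate 1 within the range of the ACT + NKTR-214 tumors, and the gene did not pass as deposited (0.69 ± 0.27 SE, adjusted p = 0.0643) or at a common sum (0.54 ± 0.30 SE, adjusted p = 0.173). As deposited it rose with a mean of at least 1 FPKM required (adjusted p = 0.0177), without ACT + IL-2 replicate 1 (1.08, adjusted p = 4.28e-07) and without ACT + NKTR-214 replicate 1, 2 or 3 (adjusted p = 0.00613, 0.0163 and 0.0221). It also rose at a common sum without ACT + IL-2 replicate 1. *Cox6b2*, the testis isoform of *Cox6b1*, had 0.482, 0.287 and 0.0786 FPKM in ACT + IL-2 and 0.932, 0.674 and 0.485 FPKM in ACT + NKTR-214. It rose as deposited (0.41 ± 0.13 SE, adjusted p = 0.0233) but not at a common sum (0.35 ± 0.13 SE, adjusted p = 0.0602), nor as deposited without ACT + IL-2 replicate 2 or 3 (adjusted p = 0.111 and 0.116) or ACT + NKTR-214 replicate 1 (adjusted p = 0.0755). At a level below 1 FPKM this rests on few reads. *Cox7b2* and *Cox8c* are listed at 0 in all 6 libraries.

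The isoforms of heart and skeletal muscle were highest in 1 ACT + IL-2 tumor. *Cox6a2* had 1.97, 1.46 and 3.11 FPKM in ACT + IL-2 and 2.15, 2.11 and 2.55 FPKM in ACT + NKTR-214. *Cox7a1* had 1.59, 1.78 and 3.24 FPKM in ACT + IL-2 and 1.76, 1.33 and 2.05 FPKM in ACT + NKTR-214. The third of them, *Cox8b*, had 0.921, 0.840 and 1.71 FPKM in ACT + IL-2 and 1.45, 0.789 and 0.810 FPKM in ACT + NKTR-214. In all 3 the highest value was in ACT + IL-2 replicate 3, which also had the highest sum of the 8 skeletal muscle markers, 80.2, 43.9 and 111 FPKM in ACT + IL-2 and 37.1, 50.6 and 36.4 FPKM in ACT + NKTR-214. Of those 8 markers, 6 fell as deposited and 7 at a common sum, among them *Ckm* and *Acta1*, and none is at 0. Of all genes, 8.28% fell as deposited and 31.3% at a common sum. In *Ckm* and *Acta1* the groups overlapped as deposited, with ACT + IL-2 replicate 2 (8.10 and 11.0 FPKM) within the ACT + NKTR-214 range. The part of muscle RNA in the isoform values was not tested. *Cox4i2*, the isoform of *Cox4i1* known from lung and hypoxic cells, had 1.32, 0.778 and 0.852 FPKM in ACT + IL-2 and 0.666, 1.63 and 0.635 FPKM in ACT + NKTR-214.

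Ratios of an isoform to its partner within a library were compared for the 9 pairs in which both genes had a mean of at least 0.1 FPKM. The log2 ratio of *Ndufa4l2* to *Ndufa4* was -4.76, -5.96 and -5.94 in ACT + IL-2 and -4.78, -3.91 and -3.90 in ACT + NKTR-214. The mean difference, ACT + NKTR-214 minus ACT + IL-2, was 1.35 (exact two-sided permutation test, p = 0.200, adjusted p = 0.900). For *Cox6b2* over *Cox6b1* the ratio was higher in every ACT + NKTR-214 tumor and the difference was 1.30 (exact two-sided permutation test, p = 0.1, adjusted p = 0.900), where 0.1 is the smallest p that 3 tumors against 3 can give. In the other 7 pairs the groups overlapped, with differences from -0.18 (*Cox4i2* over *Cox4i1*) to 0.41 (*Atp5g1* over *Atp5g3*) and exact p from 0.4 to 1.0. Of these 7 pairs 3 hold *Atp5g1* or *Atp5g2*, whose values are uncertain. No pair passed after adjustment over 9, and with 3 tumors against 3 none could.

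Genes that work with the chain but lie outside the symbols were read from the same fit. Their counts stand beside 8.28% of all genes lower and 20.7% higher as deposited, and 31.3% and 20.6% at a common sum. Among 8 further subunits and carriers none passed as deposited and 5 fell at a common sum, with medians of -0.24 and -0.34. *Cyc1*, cytochrome c1 of complex III, had 143, 109 and 134 FPKM in ACT + IL-2 and 102, 91.4 and 94.9 FPKM in ACT + NKTR-214. It was lower in every ACT + NKTR-214 tumor and did not pass as deposited (-0.41 ± 0.17 SE, adjusted p = 0.0825), but it fell at a common sum (-0.59, adjusted p = 0.00138). It is named after its values were seen.

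The citric acid cycle, which feeds NADH and succinate to the chain, had 4 of 16 genes lower and none higher as deposited, and 14 lower at a common sum. *Suclg2*, a subunit of succinyl-CoA ligase, had 12.3, 10.7 and 12.9 FPKM in ACT + IL-2 and 8.18, 6.45 and 7.16 FPKM in ACT + NKTR-214 (-0.65 ± 0.15 SE, adjusted p = 0.00361 as deposited). *Idh3a*, of isocitrate dehydrogenase, had 68.6, 52.1 and 68.6 FPKM in ACT + IL-2 and 50.1, 33.0 and 40.0 FPKM in ACT + NKTR-214 (-0.62 ± 0.18 SE, adjusted p = 0.0157). The groups did not overlap in either gene, and both fell at a common sum as well (-0.82 and -0.80, adjusted p = 0.00131 and 0.00447). The median log2 fold change of the 16 genes was -0.28 as deposited and -0.46 at a common sum, beside -0.10 and -0.28 for the 82 subunits.

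Few assembly factors were called as deposited and more at a common sum. For complex I, none of 15 passed as deposited and 11 fell at a common sum. For complex IV, 1 of 23 rose (*Coa4*) and 1 fell (*Fastkd2*) as deposited, and 9 fell and 1 rose at a common sum. Of 4 factors of complex II, 1 rose as deposited, and at a common sum 1 rose and 1 fell. The one that rose, *Sdhaf1*, had 8.82, 6.47 and 8.17 FPKM in ACT + IL-2 and 11.8, 12.7 and 9.29 FPKM in ACT + NKTR-214 (0.47 ± 0.16 SE, adjusted p = 0.0391). Of 6 factors of complex III, 1 rose as deposited, *Uqcc3*, and at a common sum 1 rose and 1 fell. *Uqcc3* had 7.07, 5.31 and 6.28 FPKM in ACT + IL-2 and 9.90, 12.6 and 8.16 FPKM in ACT + NKTR-214 (0.63 ± 0.17 SE, adjusted p = 0.0117). Both genes also rose at a common sum (0.31 and 0.47, adjusted p = 0.0168 and 0.0120). None of the 3 factors of complex V passed as deposited and 2 fell at a common sum.

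Of 13 regulators of mitochondrial biogenesis, 1 fell as deposited and 9 at a common sum, and none rose, beside 8.28% and 31.3% of all genes lower. The one was *Ppargc1a*, which encodes PGC-1α. It had 40.2, 30.1 and 41.5 FPKM in ACT + IL-2 and 16.4, 8.11 and 15.2 FPKM in ACT + NKTR-214, with the highest ACT + NKTR-214 tumor below the lowest ACT + IL-2 tumor. Its log2 fold change was -1.47 ± 0.21 SE, adjusted p = 8.47e-05 as deposited, and it fell at a common sum (-1.64, adjusted p = 0.00226). *Nrf1* and *Gabpa*, whose motif letters were searched in the promoters, had log2 fold changes of -0.17 and -0.10 and did not pass as deposited (adjusted p = 0.448 and 0.657). Both fell at a common sum (-0.32 and -0.27, adjusted p = 0.0135 and 0.0214). At a common sum, 24 of the 38 lower subunits with a promoter (63.2%) held an NRF1, GABPA or YY1 match, and so did 17 of the 28 that were not called (60.7%).

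Genes of the outer membrane and of import serve all complexes. Of 14 genes of the outer membrane and of import, 2 fell as deposited and 10 at a common sum, beside 8.28% and 31.3% of all genes. *Hspd1*, the matrix chaperonin, had 31.1, 26.2 and 30.7 FPKM in ACT + IL-2 and 21.1, 15.0 and 18.1 FPKM in ACT + NKTR-214 (-0.68 ± 0.15 SE, adjusted p = 0.00352). *Vdac1*, the outer membrane channel, had 171, 133 and 187 FPKM in ACT + IL-2 and 122, 96.1 and 112 FPKM in ACT + NKTR-214 (-0.55 ± 0.19 SE, adjusted p = 0.0350). They were at -0.85 and -0.74 at a common sum (adjusted p = 0.00219 and 0.00310). Among 11 hypoxia response genes 1 rose, *Egln3*, with 3.48, 0.850 and 2.02 FPKM in ACT + IL-2 and 5.11, 11.0 and 8.35 FPKM in ACT + NKTR-214 (1.59 ± 0.28 SE, adjusted p = 0.000422), and the median was -0.07. Of these 11 genes, 1, again *Egln3* (1.47, adjusted p = 0.00841), rose and 3 fell at a common sum. The single gene that rose encodes an oxygen sensor of the HIF pathway.

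Markers of some cell types differed between the groups and those of others did not. Their counts stand beside 8.28% of all genes lower and 20.7% higher as deposited, and 31.3% and 20.6% at a common sum. Of the 9 melanocyte markers, 7 fell as deposited and 9 at a common sum, with medians of -0.90 and -1.08, further from 0 than that of any complex. *Mitf*, the lineage transcription factor, had 126, 99.3 and 120.4 FPKM in ACT + IL-2 and 38.2, 19.4 and 35.7 FPKM in ACT + NKTR-214. All 8 T cell markers in the table rose on both scales, and their sum was 13.5 to 31.0 FPKM in ACT + IL-2 and 167 to 357 FPKM in ACT + NKTR-214. All 8 markers of macrophages and monocytes rose as deposited and 7 at a common sum, with sums of 208 to 569 FPKM in ACT + IL-2 and 1073 to 1960.3 FPKM in ACT + NKTR-214. Of 6 fibroblast markers 5 rose as deposited and 2 at a common sum (216 to 645 FPKM in ACT + IL-2 and 578 to 1160.0 FPKM in ACT + NKTR-214), and of 4 NK cell markers 2 rose on both scales (0.887 to 2.94 FPKM in ACT + IL-2 and 8.33 to 18.8 FPKM in ACT + NKTR-214). The 5 B cell markers, of which 2 were tested and none passed on either scale, summed to 0.889 to 2.01 FPKM in ACT + IL-2 and 0.960 to 1.54 FPKM in ACT + NKTR-214. On both scales 1 of 6 pericyte markers rose (12.9 to 28.1 FPKM in ACT + IL-2 and 16.9 to 28.1 FPKM in ACT + NKTR-214), as did 1 of 6 endothelial markers (27.6 to 58.7 FPKM in ACT + IL-2 and 41.9 to 80.1 FPKM in ACT + NKTR-214), and none of 3 erythroid markers passed (43.9 to 142 FPKM in ACT + IL-2 and 86.1 to 149 FPKM in ACT + NKTR-214). Of 4 adipocyte markers 1 rose as deposited and none at a common sum (1.03 to 10.2 FPKM in ACT + IL-2 and 3.07 to 26.0 FPKM in ACT + NKTR-214). No marker in the table is at 0 in all 6 libraries. The 1 of 6 pericyte and 1 of 6 endothelial markers that rose are below the share of all genes called higher. The part of these cell types in the levels of the respiratory chain was not tested.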

How the data were processed

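RNA of 6 whole B16F10 tumors, each from a different mouse, was sequenced in single-end reads of 50 bases. Per the study's methods and the submitters' processing notes, the authors aligned the reads to the mouse genome GRCm38 with HISAT2 2.0.4, counted them per gene with HTSeq and computed FPKM from the counts. The deposited table holds FPKM, with no further normalization between libraries. The annotation, the use of strand and the treatment of reads with several positions are not given in the sources used here. Depth was estimated from the steps between low FPKM values, which were too seldom whole reads to recover counts.

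Values were tested as log2(FPKM + 1) with limma 3.58.1 in R 4.3.3 (lmFit, then eBayes with a trend) between 3 ACT + IL-2 and 3 ACT + NKTR-214 tumors. Genes with a mean of at least 0.1 FPKM were tested and adjusted together by the Benjamini-Hochberg method (threshold 0.05), and all subunits and lists were read from this fit. Isoform ratios, log2 with 0.1 FPKM added to both genes, were compared by an exact two-sided permutation test. Sums and ratios of complexes were described without a test. The fitting code was tested on simulated data. The exon model for coordinates and shared 50-base windows was GENCODE vM21. Sums and ratios used pandas 2.3.3 and numpy 2.4.6 under Python 3.11.15, and plots used matplotlib 3.10.9.

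The subunits and all gene and marker lists were chosen with earlier results of these data known. Genes named with values were, in each complex, up to 4 called genes per direction with no overlap and a mean of at least 1 FPKM, fixed core subunits, the tissue-restricted isoforms and their partners and the gene with the highest mean, and in each list the 2 called genes with the largest fold change. Other genes were named after their values were seen (*Ndufa2*, *Ndufa5*, *Ndufb9*, *Ndufs4*, *Uqcrq*, *Cyc1*, *Mitf*, *Nrf1*, *Gabpa*, *Ckm*, *Acta1*, and those named for their sequence). The alternatives were another pseudocount, other minimum values, other scalings, other variance models, the replicate number as a block and each library left out. *Ndufa4* in complex IV and each library left out at a common sum were added after seeing the data. Some genes that fall under these rules are not reported here.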

Additional observations from a re-analysis of the deposited data

How the results depend on the processing

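The number of subunits called lower depended most on the scaling between libraries. Of the 82 subunits, 2 were called lower as deposited, 44 at a common sum, 41 at a common 75th percentile and 41 after quantile normalization. It was 1 with no minimum FPKM (5.49% of all genes) and 0 with no moderation of the variance (0.191% of all genes). With no moderation, 3 were lower and 3 higher at an unadjusted p under 0.05, beside 1620 and 3007 of all genes tested. The number called higher was 3 as deposited, 3 or 4 under the other scalings, 0 with no minimum and 0 with no moderation. With no minimum 15.1% of all genes were higher, and with no moderation 0.713%. With each library left out, between 1 and 15 were called lower and between 0 and 5 higher. Of all genes, 4.48% to 14.1% were then lower and 14.1% to 24.6% higher. The 15 and the 0 both came without ACT + IL-2 replicate 2 and the 5 without ACT + IL-2 replicate 1. At a common sum, leaving out a library gave 35 to 45 lower and 2 to 4 higher, an alternative chosen after seeing the data. There, 20.6% to 30.7% of all genes were lower and 15.3% to 20.2% higher. The ratio of complex IV to complex I differed by 0.0485 between the groups, and by -0.0113 with *Ndufa4* counted in complex IV. The cause of the scaling dependence was not tested.

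No pairing of the tumors by replicate number was seen, although 3 tumors per group cannot exclude one. Deviations of same-numbered tumors correlated at -0.206, -0.067 and 0.396, and those of differently numbered tumors at -0.542 to 0.586. With the replicate number as a block 4 subunits were called higher and 3 lower, beside 21.8% and 8.66% of all genes. Among them were *Ndufa4l2* as higher (adjusted p = 0.0180) and *Cox7b* as lower.

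Among the subunits named by rule, no fold change passed the test on the side to which its sign changed. Outside them *Ndufs4*, named after its values were seen, went from 0.003 as deposited to -0.17 at a common sum, where it was called lower (adjusted p = 0.0445). That call was lost at a common 75th percentile (adjusted p = 0.142), after quantile normalization (adjusted p = 0.204) and at a common sum with any 1 library left out. Of the 82 subunits 52 were below 0 as deposited and 72 at a common sum, and sign changes are given here for the subunits named by rule. At a common 75th percentile, a common sum and after quantile normalization the log2 fold changes were -0.0600, -0.13 and -0.0660 for *Ndufs7*, -0.0204, -0.0929 and -0.23 for *Cox4i1*, -0.0936, -0.17 and -0.21 for *Cox5a* and -0.0236, -0.0555 and -0.23 for *Atp5g1*. At a common sum and after quantile normalization they were -0.0455 and -0.20 for *Cox6a2* and -0.0515 and -0.0775 for *Cox6a1*. With each library left out, log2 fold changes ran from -0.13 to 0.0852 for *Ndufv1*, -0.0849 to 0.12 for *Ndufs7*, -0.18 to 0.0146 for *Ndufs8*, -0.0306 to 0.17 for *Cox4i1*, -0.13 to 0.12 for *Cox5a*, -0.26 to 0.0879 for *Cox4i2*, -0.0981 to 0.27 for *Cox6a2*, -0.35 to 0.00925 for *Cox7a1*, -0.24 to 0.0845 for *Cox8b*, -0.14 to 0.19 for *Atp5g1*, -0.12 to 0.10 for *Atp5g2* and -0.15 to 0.0717 for *Cox8a*. The log2 isoform ratios differed by -0.59 to 0.0307 for *Cox4i2* over *Cox4i1*, -0.17 to 0.20 for *Cox6a2* over *Cox6a1*, -0.24 to 0.27 for *Cox7a1* over *Cox7a2*, -0.37 to 0.0664 for *Cox8b* over *Cox8a* and -0.42 to 0.50 for *Atp5g1* over *Atp5g2*. The FPKM values carry no exact read count, so the isoforms near 1 FPKM cannot be given a counting error.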
